A study of Homo sapiens with 8 samples.

Results

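The comparison was PC3 cells transfected with miR-150-3p against mock PC3 cells, measured on 1 of the 8 arrays of the series. Every gene measured on this array was a member: 17633 of the 43304 gene names on the array were well above background in both channels and were ranked, each by its brightest probe. PC3 is an established prostate cancer cell line. The mock cells, labelled as not transfected, carried Cy3 (green), and the cells given miR-150-3p with Lipofectamine RNAiMAX carried Cy5 (red). Total RNA was used, and the dose and the time after transfection were not given for this array in the sources used here. On the other 7 arrays were PANC-1 cells given an siRNA against FOXQ1 (si-FOXQ1-1 or si-FOXQ1-2), FaDu cells given either strand of miR-99a (miR-99a-5p, miR-99a-3p), and PC3 cells given miR-99a-3p, miR-100-3p or miR-150-5p, each set against mock cells of its line. All were on 1 slide, mock was always Cy3, and no condition was repeated. A difference between mock and transfected cells could therefore not be told apart from a difference between the dyes, between these 2 cultures, or from an effect of the transfection reagent, and no test was made. Nor can fewer cells of a kind be told apart from less RNA per cell in such bulk samples.

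A microRNA precursor gives a pair of strands. One is usually named the guide and the other the passenger, and miR-150-3p comes from the 3′ arm of the miR-150 precursor. A strand loaded into an Argonaute protein pairs through its seed, the bases near its 5′ end, with mRNAs, whose translation and stability then fall. Short double-stranded RNA can also be sensed by cells, which then make interferon-stimulated genes, a set of antiviral effectors and sensors.

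In these PC3 cells the genes lowest after miR-150-3p were ADAM12, a disintegrin and metalloproteinase; COL8A1, a collagen chain; SPOCK1, a matrix proteoglycan; and GPR56, an adhesion G protein-coupled receptor now named ADGRG1. Genes of DNA replication were lower as a group, with a median log2 ratio of -0.88. The highest genes were CXCR4, a chemokine receptor, and RTP4, BST2, RSAD2 and IFI6, which are interferon-stimulated. Besides the interferon response, LOX, KRTAP3-1, PGM2L1 and ITM2A were among the highest. In all, 403 of 17633 genes (2.29%) had a log2 ratio below -1, a 2-fold difference, and 471 (2.67%) had one above 1. Of the latter, 51 were on a list of 161 interferon-response genes and 420 were not, which is 2.4% of the 17504 measured genes off that list. Below -2 lay 12 genes. Above 2 lay 31 genes, 20 of them on the interferon list and 11 off it.

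The precision was technical only. The scanner software gave each spot an error, whose median over the ranked genes was 0.210 on the log2 scale. Over 284 probes printed as at least 5 spots the median SD between spots was 0.0530. The mock channels of the 4 PC3 arrays had a median SD of 0.0823 per gene, and 0.226 at the 95th percentile, although it is not stated whether they held the same RNA. This SD was taken after normexp background correction (offset 50), loess and Aquantile normalisation. The offset draws dim signals together by construction, so the SD is not on the scale of the deposited ratios. The middle of the array was near 0, with a median log2 ratio of 0.03 and 5th and 95th percentiles of -0.77 and 0.81. The scanner called 48.9% of gene spots well above background in Cy3 and 41.8% in Cy5. No gene spot was saturated. The values also moved with the processing. Of 127 named genes, 61 moved by over 1.5-fold under at least 1 of 10 other settings of normalisation, probe, centring or control, and of the 73 past a log2 ratio of -1 or 1, 32 were not past it under at least 1 of them. Most of these 32 were lost with normexp background correction and loess (21), with the mean of the 4 PC3 mock channels as control (21) or with the mean of the other 3 PC3 arrays subtracted (20). A range over the settings is given below for some of the genes that moved, so a gene without a range was not necessarily stable. For example, RRM2 ran from -0.19 to 1.54, AGO1 from -1.75 to -0.45 and OCLN from -0.12 to 0.89.

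**Figure D1:**
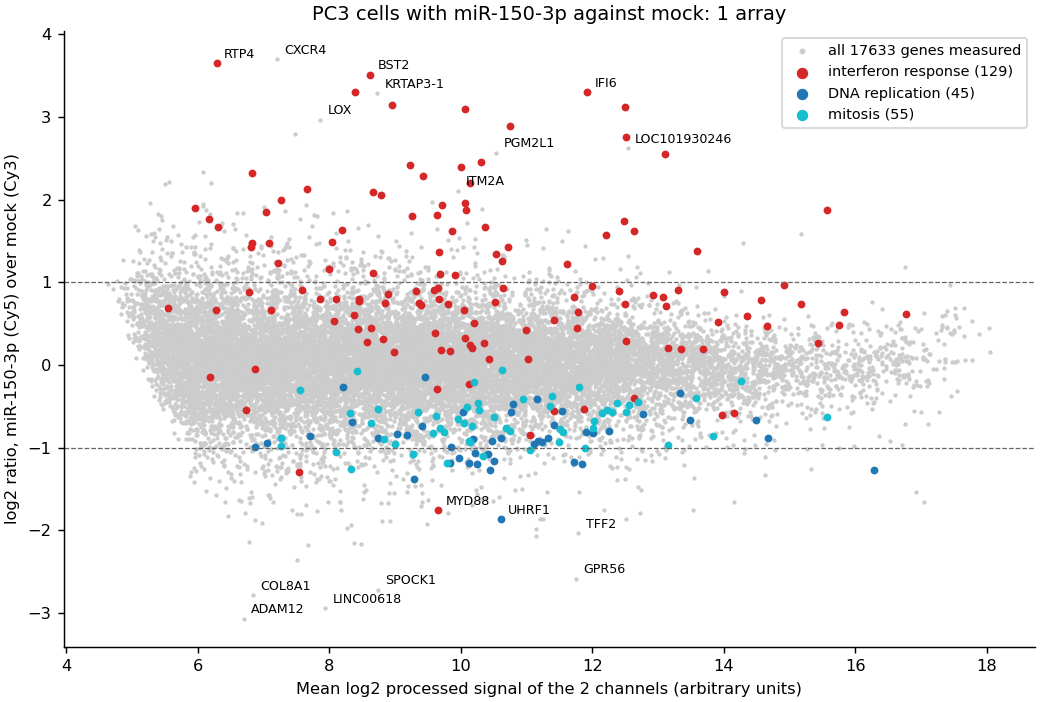
Each point is 1 gene measured in both channels, with its mean log2 processed signal (arbitrary units) on the x axis and its log2 ratio of miR-150-3p over mock on the y axis; the dashed lines stand at -1 and 1. Red points are the 129 measured genes of the interferon list, which reach 3.65, and the dark and light blue points are 45 DNA replication and 55 mitosis genes, all below 0.

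The PC3 label was read against markers first. Keratin 18 (KRT18, processed signal 42378 in mock and 37541 in transfected cells), keratin 19 (KRT19), keratin 8 (KRT8), the epithelial adhesion molecule EPCAM, E-cadherin (CDH1) and the surface receptor CD44 were measured in both channels. KLK3, the gene for prostate-specific antigen, was not well above background in either; PC3 is known to lack androgen signalling. Of 12 markers of blood, endothelial and stromal cells, CD14 and COL1A1 were measured in both channels, with log2 ratios of -0.48 and 0.54. PECAM1, VWF and CDH5 were above background in mock cells only, LUM in transfected cells only, and the other 6, PTPRC (CD45) among them, in neither.

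ADAM12 had the lowest ratio of all ranked genes. Its signal was 302 in mock and 36.03 in transfected cells, a log2 ratio of -3.07 ± 0.36 (spot error). The transfected signal was thus near the lowest Cy5 signal called above background, 34.6. A second ADAM12 probe measured in both channels, for the same transcript, gave -1.54, so both were lower but by different amounts. Over the settings its ratio ran from -3.85 to -1.54. On the other PC3 arrays the first probe gave -0.05 with miR-150-5p, 1.14 with miR-99a-3p and 1.26 with miR-100-3p.

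SPOCK1 encodes a secreted proteoglycan of the matrix. Its signal was 1097 in mock and 167 in transfected cells, a log2 ratio of -2.72 ± 0.33. With miR-150-5p, miR-99a-3p and miR-100-3p its ratios were 0.22, 1.11 and 0.56, so it was low on the miR-150-3p array and not below 0 on the other 3. Over the settings it ran from -3.35 to -2.26. SPOCK1 has been described as a target of both strands of miR-150 in prostate cancer cells, and such a description may rest on these same samples, so its place on a target list is not independent evidence of its direction.

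GPR56 was the brightest of the 10 lowest genes in mock cells. Its signal was 8411 in mock and 1403 in transfected cells, a log2 ratio of -2.58 ± 0.31, beside -0.24, -0.67 and -0.10 on the miR-150-5p, miR-99a-3p and miR-100-3p arrays. COL8A1 went from 300.1 in mock to 43.5, a log2 ratio of -2.79 ± 0.34. GPC6, a glypican that carries heparan sulphate at the cell surface, went from 700.04 to 158, a log2 ratio of -2.15 ± 0.29, and its ratio was 1.25 with miR-99a-3p. KLK6, a secreted serine protease of the kallikrein family, went from 412 to 80.6, a log2 ratio of -2.36 ± 0.31. It was also low with miR-150-5p, at -1.30. Over the settings COL8A1 ran from -2.82 to -1.35 and KLK6 from -2.39 to -0.79, so KLK6 did not stay below -1.

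TFF2, a trefoil peptide of mucus, had a signal of 7165 in mock and 1749 in transfected cells, a log2 ratio of -2.03 ± 0.28. The same probe gave 2.32 with miR-150-5p, -0.97 with miR-99a-3p and 2.11 with miR-100-3p, so its direction differed between the 4 arrays. Over the settings TFF2 ran from -3.19 to -1.81. MUC5B, a gel-forming mucin, had a log2 ratio of -1.89 ± 0.27, and 0.91 with miR-150-5p. MUC5AC, another gel-forming mucin, was 150 in mock and not well above background in transfected cells, at least 4.34-fold lower, or 2.83-fold with the stricter limit described with the other bounds.

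Among other protein-coding genes of the 20 lowest, TTC7B, a scaffold for a phosphatidylinositol 4-kinase, went from 4509 to 1141, a log2 ratio of -1.98 ± 0.27. IMMP2L, a peptidase of the inner mitochondrial membrane, had -1.92 ± 0.27, CALML4, a calmodulin-like protein, -1.98 ± 0.28, FAM155A (now NALF1), a partner of the sodium leak channel, -1.88 ± 0.27, and MYL10, a myosin light chain, -1.87 ± 0.28. MYL10 was below -1 on the miR-150-5p array (-1.71) and on the miR-100-3p array (-1.28) as well, and over the settings it ran from -1.91 to -0.69. On the miR-150-5p, miR-99a-3p and miR-100-3p arrays CALML4 gave -0.91, -1.48 and 0.22, and FAM155A gave -1.07, 0.58 and 0.41. TTC7B and IMMP2L were not below -1 on any of these arrays.

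Noncoding or unnamed transcripts made up the remaining 7. LINC00618 had a signal of 682 in mock and 88.7 in transfected cells, a log2 ratio of -2.94 ± 0.34, and -1.74 with miR-99a-3p. Over the settings it ran from -2.98 to -2.11. SH3PXD2A-AS1 had -2.17 ± 0.29, and -2.11 with miR-99a-3p. The others were GAS2L1P2, XLOC_l2_008203, ENST00000414130, lnc-CHAF1B-2 and LOC102723911, between -2.16 and -1.92. On the miR-150-5p, miR-99a-3p and miR-100-3p arrays XLOC_l2_008203 gave 0.16, -1.32 and -0.70, and LOC102723911 gave -1.46, -0.74 and 0.66. GAS2L1P2, ENST00000414130 and lnc-CHAF1B-2 were not below -1 on any of these arrays. In spite of these 7, the low end was richer in known genes than the high end. Protein-coding genes by RefSeq were 84.4% of the 403 genes below -1 (340), 57.6% of the 420 above 1 off the interferon list (242) and 70.6% of all genes measured.

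**Figure D2:**
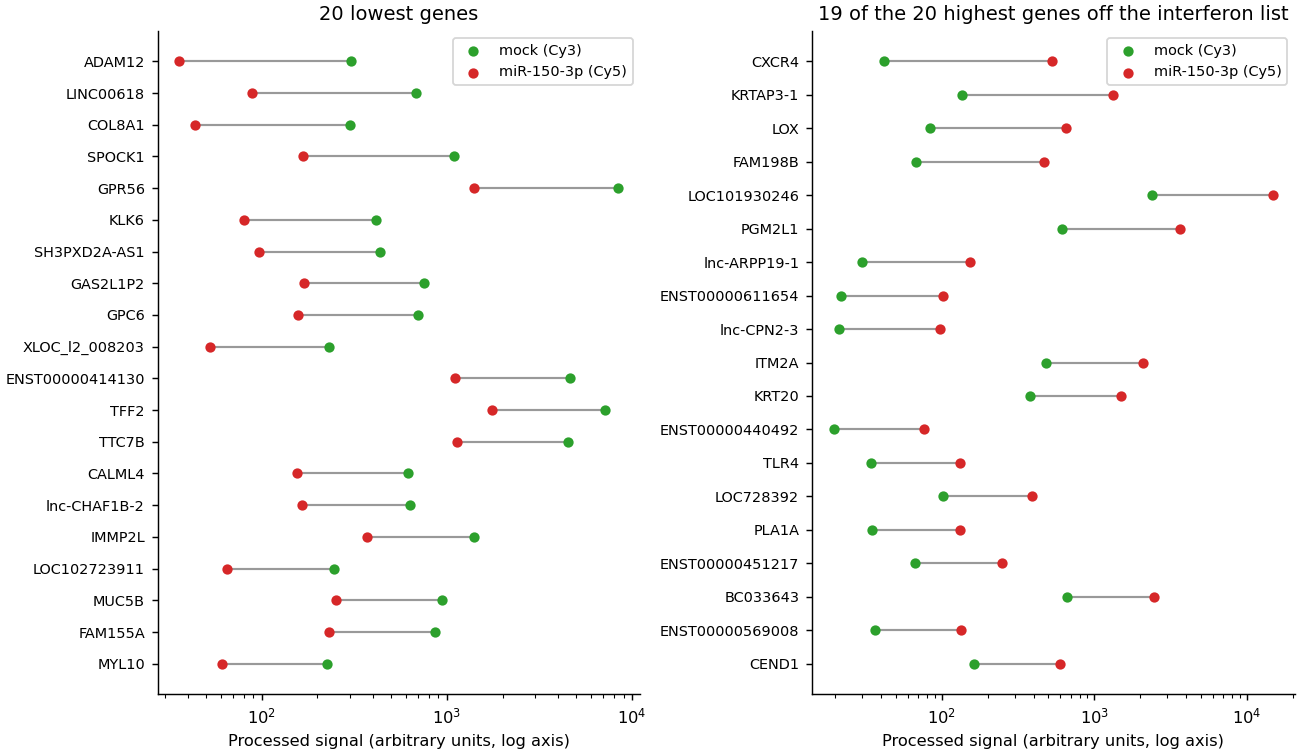
For the 20 lowest genes (left) and 19 of the 20 highest off the interferon list (right), points give the processed signal of mock (Cy3, green) and miR-150-3p (Cy5, red) cells on a log axis in arbitrary units, 1 array, joined by a line. Several of the highest genes, such as TLR4 and PLA1A, had mock signals under 50, while GPR56, TFF2 and TTC7B had mock signals of 8411, 7165 and 4509.

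The genes of DNA replication were measured in nearly every case, 45 of 47, and each of the 45 had a log2 ratio below 0, where 46.7% of all genes did. Below -1 were 13 of the 45 (28.9%), against 2.29% of all genes, and none was above 1. Their median was -0.88, beside 0.03 for all genes and a median spot error of 0.22 for the list. UHRF1, which carries DNA methylation through replication, was the lowest, with a signal of 2983 in mock and 819 in transfected cells and a log2 ratio of -1.86 ± 0.27. On the other arrays UHRF1 gave 0.00, -2.54 and -0.10, and less their mean it was -0.98. DSCC1, a subunit of a clamp loader, had -1.38 ± 0.24, but -0.04 less the mean of the other 3 PC3 arrays. E2F1, the transcription factor that switches on S-phase genes, was measured by 10 spots and had -1.27, with an SD of 0.05 between them. RRM2, the small subunit of ribonucleotide reductase, was at the other end with -0.15 ± 0.21. CLSPN, a mediator of the replication checkpoint, was not well above background in transfected cells and at least 4.44-fold lower (4.08-fold with the stricter limit). The list's medians on the other PC3 arrays were -0.22 with miR-150-5p, -1.83 with miR-99a-3p and -0.42 with miR-100-3p, so replication genes lay below 0 at the median on all 4, and miR-150-3p stood between. Set against the mean of those 3 arrays, the median on this array was -0.037.

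Mitotic genes were less low. All 55 measured were below 0, as were 46.7% of all genes, 7 (12.7%) were below -1, as were 2.29% of all genes, and the median was -0.68. AURKB, the kinase of the chromosomal passenger complex, went from 497 to 208, a log2 ratio of -1.25 ± 0.24, and TOP2A, which untangles sister chromatids, had -1.18 ± 0.23. Less the mean of the other 3 PC3 arrays these were -0.36 and -0.13. The kinetochore motor CENPE, read by 10 spots, had -0.06 with an SD of 0.07, and the cytokinesis factor ECT2 had -0.08 ± 0.21. Against the mean of the other 3 PC3 arrays the mitotic median became 0.31, since it was -0.30, -2.07 and -0.57 on the miR-150-5p, miR-99a-3p and miR-100-3p arrays.

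The 14 genes that have been reported as miR-150 targets for one strand or the other, in various cells, did not share a direction. Of 13 measured, 2 were below -1 (2.29% of all genes), 1 was above 1 (2.67% of all genes), and the median was -0.28. SPOCK1 has been given. TNS4, a tensin that links adhesion sites to the cytoskeleton, went from 2582 to 1004, a log2 ratio of -1.36 ± 0.24, beside 0.17, -1.20 and -0.01 on the miR-150-5p, miR-99a-3p and miR-100-3p arrays, and it was -0.91 with the 4 mock channels as control. MUC4, a membrane mucin, had -0.86 ± 0.22. ZEB1, a repressor of epithelial genes, and MYB, a transcription factor of blood progenitors, each had -0.49 ± 0.21, and both were lower with miR-150-5p, at -0.70 and -1.28. The ubiquitin ligase gene CBL had -0.38, the ATP receptor P2RX7 -0.28, the forkhead factor FOXP1 -0.10 and the zinc finger factor EGR2 -0.02. The growth factor VEGFA had 0.06 and NOTCH3, a Notch receptor, 0.41. GAB1, an adaptor of receptor tyrosine kinases, was 40.1 in mock and not well above background in transfected cells. CXCR4, also on this list, was the highest gene of the whole array off the interferon list.

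CXCR4, the receptor of the chemokine CXCL12, had a signal of 41.6 in mock and 528 in transfected cells. Its log2 ratio was 3.70 ± 0.41, and its 10 spots had an SD of 0.34. With miR-99a-3p and miR-100-3p it gave 0.22 and 0.24, and with miR-150-5p it was not measured in both channels. Over the settings CXCR4 ran from 2.16 to 3.70. LOX, the enzyme that crosslinks collagen and elastin, was also printed as 10 spots. It went from 83.4 to 651, a log2 ratio of 2.97 ± 0.35 with an SD of 0.12 between spots, and gave 0.65, 0.87 and -0.11 on the miR-150-5p, miR-99a-3p and miR-100-3p arrays. Over the settings LOX ran from 2.17 to 2.97. The difference between the channels exceeded the SD of the repeated spots for both genes.

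KRTAP3-1, a keratin-associated protein of hair, was read by 2 probes. They gave 3.29 ± 0.37 (136 in mock, 1328 in transfected cells) and 2.20 ± 0.30, while the first gave -0.90, -0.23 and 0.24 on the other PC3 arrays. KRT20, an intermediate filament protein of gut and urothelial epithelium that lies near KRTAP3-1 on chromosome 17, went from 382 to 1495, a log2 ratio of 1.97 ± 0.27, and was below 0 on the other 3 arrays. PGM2L1, which makes glucose 1,6-bisphosphate, went from 611 to 3624, a log2 ratio of 2.57 ± 0.31, but it was also high with miR-99a-3p, at 2.02. FAM198B (now GASK1B), a Golgi-associated protein, had 2.79 ± 0.34 here and 4.12 with miR-99a-3p. Over the settings KRTAP3-1 ran from 2.20 to 3.58, PGM2L1 from 1.54 to 2.57 and FAM198B from 1.49 to 2.79. ITM2A, a membrane protein, went from 481 to 2075, a log2 ratio of 2.11 ± 0.28, beside 0.18, 0.93 and -0.30.

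TLR4, the receptor of lipopolysaccharide, was also among the 20 highest and went from 34.5 to 132, a log2 ratio of 1.94 ± 0.32. PLA1A, a phospholipase specific for phosphatidylserine, went from 34.7 to 132, a log2 ratio of 1.92 ± 0.33. Both were dim in mock cells and were not measured in both channels on any of the other 3 PC3 arrays. Over the settings TLR4 ran from 0.96 to 1.94 and PLA1A from 0.75 to 2.32, so neither stayed above 1. LOC101930246, an unnamed locus, was the brightest of the 20: its signal was 2393 in mock and 14720.5 in transfected cells, a log2 ratio of 2.62 ± 0.32, where the other 3 arrays gave -0.37, -1.70 and -0.74. CEND1, a neuronal differentiation protein, had 1.87 ± 0.27, and 8 more of the 20, lnc-ARPP19-1, ENST00000611654, lnc-CPN2-3, ENST00000440492, LOC728392, ENST00000451217, BC033643 and ENST00000569008, lay between 1.87 and 2.33. With normexp and loess ENST00000611654, lnc-CPN2-3, ENST00000440492 and ENST00000569008 were below 1, at 0.77, 0.84, 0.68 and 0.78. ENST00000611654, lnc-CPN2-3 and ENST00000440492 had mock signals of 22.1, 21.3 and 19.7. These lay under the highest Cy3 signal not called above background, 28.0. ENST00000440492 also lies near IFI6, a gene of the interferon list, on chromosome 1.

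The genes above 1 off the interferon list were dim in mock cells, with a median Cy3 signal of 97.9, where the genes below -1 had 641 and all genes 568. When the genes were put in 4 equal classes by the mean signal of both channels, the share above 1 off the list was 4.83% in the dimmest class, then 2.62%, 1.42% and 0.71% in the brightest. The share below -1 was 2.27%, 2.93%, 2.38% and 1.57%. Where several probes of a gene were measured, they mostly shared its direction: 58 of 68 such genes below -1 had every probe below 0 and 20 every probe below -1, and 63 of 73 above 1 off the list had every probe above 0 and 23 every probe above 1.

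**Figure D3:**
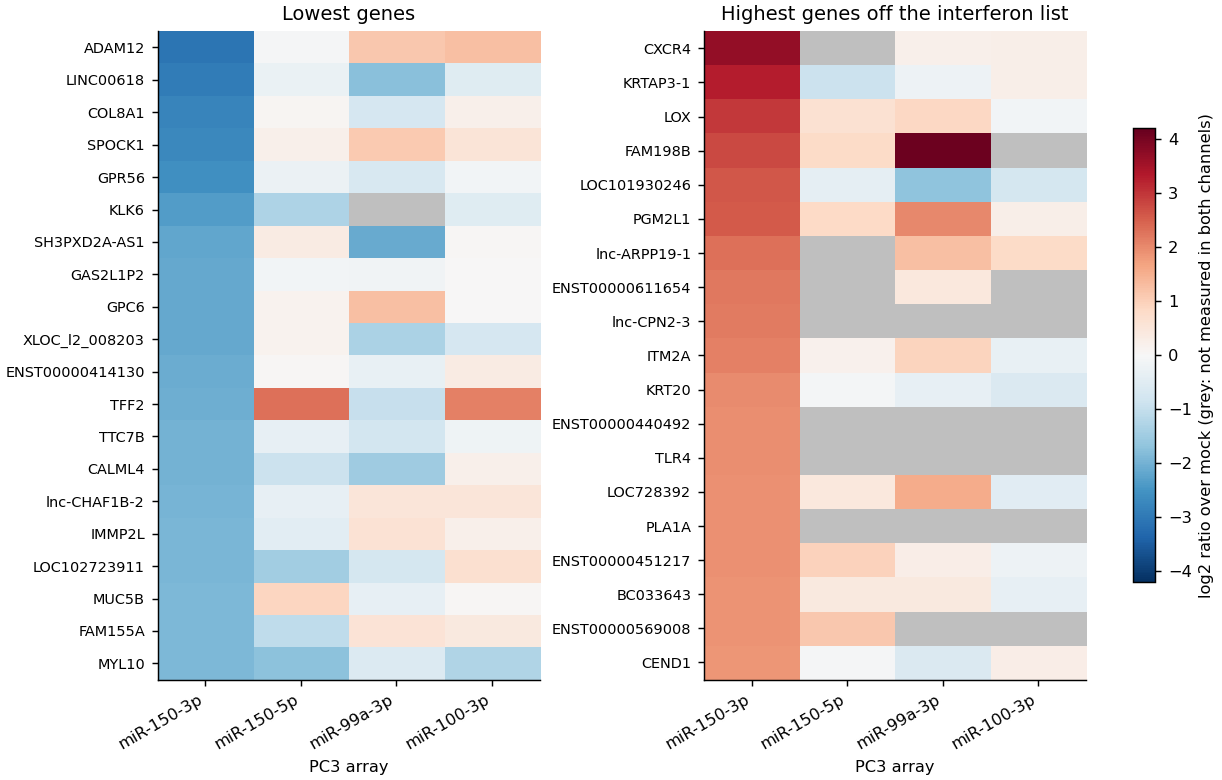
Colours give the log2 ratio over mock of the 20 lowest genes (left) and 19 of the 20 highest off the interferon list (right), by the same probe, on the 4 PC3 arrays in columns; grey marks values not measured in both channels. TFF2 was at -2.03 with miR-150-3p and above 2 with miR-100-3p and miR-150-5p. FAM198B was higher with miR-99a-3p (4.12) than with miR-150-3p (2.79).

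The 403 genes below -1 had medians of -0.21, -0.47 and -0.02 on the miR-150-5p, miR-99a-3p and miR-100-3p arrays, whose medians over all these genes were 0.02, 0.06 and 0.01. The 420 genes above 1 off the interferon list had medians of 0.19, 0.60 and 0.03 there. The labels do not say whether the mock RNA was shared between these arrays, so the values are given side by side with no test. The 51 interferon genes above 1 had medians of -0.25, 0.11 and -0.27.

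On the interferon list 129 of 160 genes on the array were measured in both channels: 51 (39.5%) were above 1, as were 2.67% of all genes, 2 were below -1, as were 2.29% of all genes, 76 lay between, and the median was 0.83. RTP4, a receptor transporter and antiviral protein, went from 22.1 to 278, a log2 ratio of 3.65 ± 0.43, which ran from 1.64 to 4.35 over the settings. BST2 (tetherin), which holds budding viruses at the cell surface, had 3.51 ± 0.39 and 3.06 by a second probe. RSAD2 (viperin), an antiviral enzyme, and IFI6, a membrane protein that limits virus replication, both had 3.30 ± 0.37, and IFI6 was far brighter, at 1238 in mock and 12199 in transfected cells. MX2, a dynamin-like antiviral protein, had 3.14 ± 0.36. Over the settings BST2 ran from 2.79 to 3.51 and RSAD2 from 2.42 to 3.30. The interferon genes themselves were not measured: IFNB1, IFNL1 and IFNL3 were not well above background in either channel, and IFNL2 was 40.7 in mock cells and not well above background in transfected cells. The chemokine genes CXCL9, CXCL10 and CXCL11 were not well above background in either channel.

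On the interferon list 13 of the 129 genes were below 0, and 2 of these were below -1. MYD88, the adaptor of Toll-like receptors and the interleukin-1 receptor, went from 1484 to 439, a log2 ratio of -1.76 ± 0.26, and gave 0.02, 0.03 and 0.15 on the miR-150-5p, miR-99a-3p and miR-100-3p arrays. APOBEC3G, a cytidine deaminase that restricts retroviruses, had -1.29 ± 0.25, but was also low with miR-150-5p (-1.12) and miR-99a-3p (-2.24), and was -0.17 less the mean of the other 3 arrays. MYD88 was thus low on the miR-150-3p array beside 3 values near 0, while APOBEC3G was below -1 on 3 of the 4.

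The promoters of the genes above 1 were searched for the interferon-stimulated response element, a site in the promoters of interferon-stimulated genes, written as GAAANNGAAA, or TTTCNNTTTC on the other strand, in the 300 bases from 250 before to 50 after each gene start of RefSeq (GRCh38.p14). The following 30-base windows, 5′ to 3′ on the strand of the gene with the match in capitals, are from 6 interferon-list genes and 2 genes off the list that hold one, chosen for display after their values were seen.
RTP4, log2 ratio 3.65, GRCh38.p14 chr3:187368357-187368386, plus strand: accgaacaccGAAACTGAAActgtttgtct
BST2, log2 ratio 3.51, GRCh38.p14 chr19:17405741-17405770, minus strand: tcctttctggGAAACTGAAActgaaaacct
IFI6, log2 ratio 3.30, GRCh38.p14 chr1:27672329-27672358, minus strand: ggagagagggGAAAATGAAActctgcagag
MX1, log2 ratio 3.12, GRCh38.p14 chr21:41420559-41420588, plus strand: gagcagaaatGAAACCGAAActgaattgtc
IFIT1, log2 ratio 2.76, GRCh38.p14 chr10:89392510-89392539, plus strand: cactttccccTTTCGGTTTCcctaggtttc
ISG15, log2 ratio 1.87, GRCh38.p14 chr1:1013380-1013409, plus strand: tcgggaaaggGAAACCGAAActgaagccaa
PLA1A, log2 ratio 1.92, GRCh38.p14 chr3:119597726-119597755, plus strand: ttgagaagaaGAAACCGAAAactctggcat
PSMB8-AS1, log2 ratio 1.48, GRCh38.p14 chr6:32844032-32844061, plus strand: aggaggaagtGAAAGCGAAAgccacagatc
Of 41 interferon-list genes above 1 that had a promoter in the table, 27 (65.9%) held the motif. Off the list it was 9 of 227 (3.96%), beside 301 of 10960 (2.75%) for all measured genes, 996 of 27305 (3.65%) for all promoters, and 3 of 275 (1.09%) for the genes below -1. None of the 6 genes above 2 off the list with a promoter held it. The 9 were PLA1A, PSMB8-AS1, LPAR6, PHLDB2, PVRL3-AS1, C7orf60, TRAPPC13, ARMC9 and STARD4-AS1. PSMB8-AS1 (log2 ratio 1.48) lies beside PSMB8 and PSMB9, immunoproteasome genes of the interferon list, of which PSMB9 had 1.96. A match to these letters is a description of the sequence only.

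**Figure D4:**
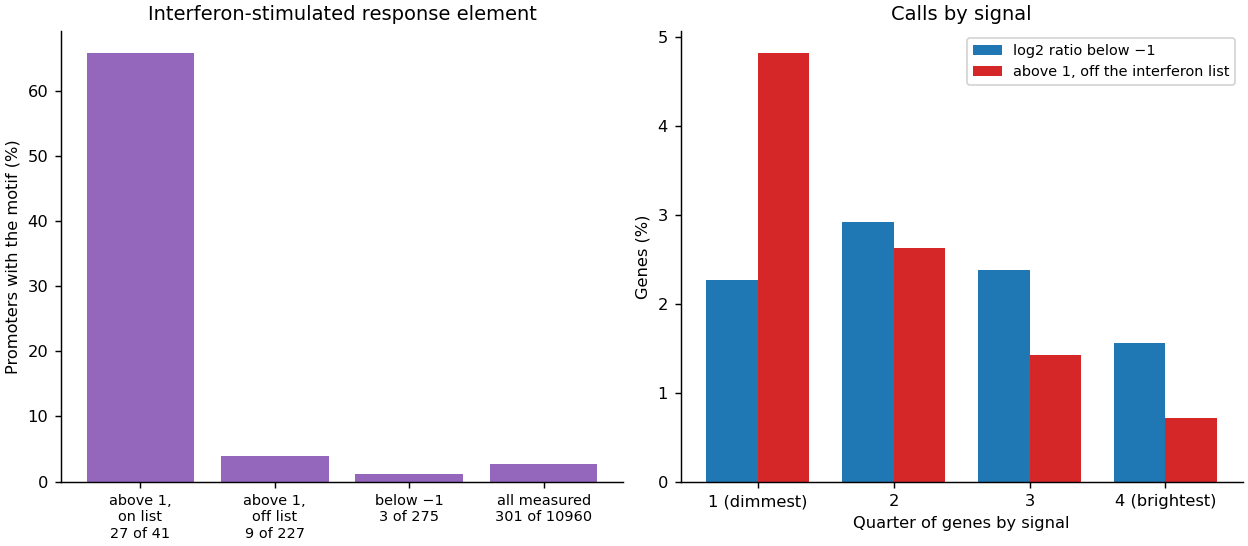
Left, bars give the percentage of promoters with the interferon-stimulated response element in genes above 1 on and off the interferon list, genes below -1 and all genes measured, with counts under each bar. Right, bars give the percentage of genes below -1 (blue) and above 1 off the interferon list (red) in 4 equal classes by mean signal: the red share goes from 4.83% in the dimmest class to 0.71% in the brightest.

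Genes of adhesion and matrix lay on both sides of 0. Of 43 measured, 4 were below -1 (2.29% of all genes) and 5 above 1 (2.67% of all genes), and the median was -0.10. ITGB3, the integrin beta 3 chain, went from 198 to 62.4, a log2 ratio of -1.67 ± 0.29, and COL13A1, a membrane collagen, had -1.15 ± 0.23. At the other end stood LOX and MMP13, a collagenase, which went from 214 to 695, a log2 ratio of 1.70 ± 0.26, beside -1.57, -0.61 and -0.57 on the miR-150-5p, miR-99a-3p and miR-100-3p arrays. MMP13 was above 0 on the miR-150-3p array alone among these 4. Over the settings ITGB3 ran from -1.70 to -0.81 and MMP13 from 1.33 to 2.61.

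Of 28 genes of the BCL2 family and caspase list, 2 were below -1 and 1 above 1, where 2.29% and 2.67% of all genes were, with a median of 0.04. BCL2 and BCL2L1 (BCL-XL), which hold back cell death, had -1.65 ± 0.29 (152 in mock, 48.4 in transfected cells) and -1.02 ± 0.22. BMF and BCL2L11 (BIM), which promote it, had 1.38 ± 0.24 and 0.74 ± 0.22. None of the 3 past the threshold stayed past it over the settings, where BCL2 ran from -1.69 to -0.60, BCL2L1 from -1.05 to -0.66 and BMF from 0.03 to 1.38. BMF was also above 0 on the other 3 PC3 arrays, at 0.81, 2.46 and 0.77. The roles did not divide the list: BID and BAD, which promote death, had -0.69 and -0.50, and BCL2L2, which holds it back, had 0.69.

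Among genes of growth factor signalling, FOSL1, a subunit of the AP-1 transcription factor, was the lowest, with a signal of 8454 in mock and 2518 in transfected cells and a log2 ratio of -1.75 ± 0.26, beside -0.11, -0.85 and 0.12 on the miR-150-5p, miR-99a-3p and miR-100-3p arrays. DUSP5, a phosphatase of ERK, had -0.88 ± 0.22. At the other end the ligand EGF had 0.85 ± 0.36. The list's median was -0.04, with 1 of 25 below -1 (2.29% of all genes) and none above 1. Of 34 epithelial and mesenchymal genes 1 was below -1 (2.29% of all genes) and none above 1 (2.67% of all genes). These counts were near the background, and the median was -0.05. The 1 gene was SNAI1, a repressor of E-cadherin, with -1.13 ± 0.24, and it was -0.55 with the 4 mock channels as control. S100A4 had -0.90, and the junction genes PKP2 and OCLN had 0.99 and 0.82.

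Lipid, hypoxia and growth arrest genes had list medians slightly above that of the array, and 2 members each above 1, where 2.67% of all genes were. Of 33 genes of cholesterol and fatty acid synthesis 2 were above 1 and none below -1, with a median of 0.22: HMGCS1, which makes HMG-CoA, had 1.31 ± 0.24, and INSIG1, which restrains the SREBP pathway, 1.01 ± 0.22, while SC5D, a desaturase of sterol synthesis, had -0.62. Of 28 hypoxia and glycolysis genes 2 were above 1, with a median of 0.25: ADM, adrenomedullin, had 1.45 over 10 spots with an SD of 0.06, ANKRD37 had 1.10, and ALDOA and CA9 had -0.18 and -0.38. Of 22 p53 targets and CDK inhibitors 2 were above 1, with a median of 0.20: TP53INP1, a p53-induced stress protein, had 1.50 ± 0.25 (2.17 with miR-99a-3p) and CDKN1B (p27) 1.07 ± 0.23, while PLK3 and GADD45A had -0.57 and -0.48. Of 24 TGF-beta genes 2 were above 1, with a median of 0.27: BAMBI, a decoy receptor, had 1.50 ± 0.25, beside 1.27, 2.03 and 0.53 on the other arrays, and TGFB2, a ligand, 1.01 ± 0.28, while the activin antagonist FST and the matrix protein TGFBI had -0.95 and -0.84. Less the mean of the other 3 PC3 arrays the TGF-beta median was -0.089, and all 8 of these genes were below 1: HMGCS1 0.97, INSIG1 0.33, ADM 0.72, ANKRD37 0.99, TP53INP1 0.71, CDKN1B 0.55, BAMBI 0.22 and TGFB2 0.56.

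The machinery of microRNAs had the highest median after the interferon list, 0.35 over 24 genes, of which 1 was above 1 (2.67% of all genes) and none below -1, but it was 0.0029 less the mean of the other 3 PC3 arrays. AGO4, an Argonaute protein, had 1.01 ± 0.23 (0.63 to 1.01 over the settings) and XRN1, the 5′ to 3′ exonuclease that is also on the interferon list, 0.86 ± 0.22. AGO2, the Argonaute that cuts its targets, had -0.47 over 10 spots with an SD of 0.03, and AGO1 had -0.54 ± 0.21.

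In the NF-kB and chemokine list 1 of 32 genes was below -1 and 1 above 1, with a median of 0.16; over all genes the shares were 2.29% and 2.67%, so these counts were near the background. LCN2, an iron-scavenging lipocalin, had -1.01 ± 0.23 and IL1B -0.97 ± 0.22, while BIRC3, an inhibitor of apoptosis, had 1.25 ± 0.24 and the chemokine CXCL8 0.88 ± 0.24. LCN2 turned to 0.32 when the mean of the 4 PC3 mock channels served as the control, and BIRC3 was 0.82 less the mean of the other 3 arrays. Among 21 NRF2 targets and metallothioneins, SRXN1, which repairs peroxiredoxins, had -1.12 ± 0.23 and AKR1B10, an aldo-keto reductase, 1.07 ± 0.24, with a median of 0.00; TXNRD1 and AKR1C3 had -0.65 and 0.57. SRXN1 was -0.92 less the mean of the other 3 arrays, and AKR1B10 was 0.72 with normexp and loess. SRXN1 was the 1 gene below -1 and AKR1B10 the 1 above 1, again near the shares of all genes.

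In 3 further pathway lists no gene was past the threshold. Of all genes 2.29% were below -1 and 2.67% above 1, so no call in lists of this size was not far from the background. The 33 genes of the unfolded protein and ATF4 stress response had a median of -0.01 and ran from SLC7A5 (-0.93) and HYOU1 (-0.70) to EDEM1 (0.65) and DDIT4 (0.93). The 45 genes of oxidative phosphorylation had a median of -0.06 and ran from SDHD (-0.66) and COX8A (-0.53) to NDUFB1 (0.28) and UQCRC2 (0.31), the narrowest range of the lists with over 20 genes. The 32 genes of lysosome and autophagy had a median of 0.11, from ATP6V1B2 (-0.94) and CTSB (-0.90) to NEU1 (0.75) and GABARAPL1 (0.83).

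**Figure D5:**
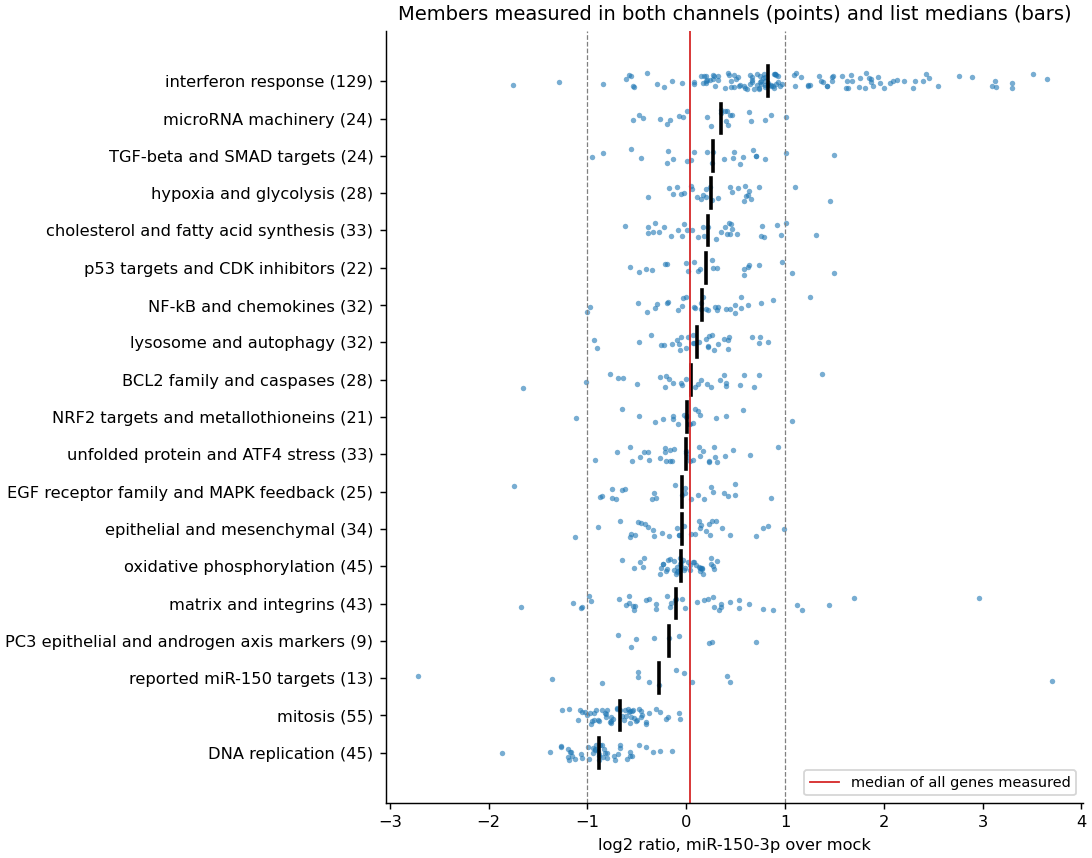
Points are the log2 ratios of the members measured in both channels, with their number after each list's name, and black bars are list medians; the red line is the median of all genes measured (0.03) and dashed lines stand at -1 and 1. The medians of DNA replication (-0.88) and mitosis (-0.68) lie lowest and that of the interferon response (0.83) highest.

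Some genes were above background in 1 channel only, and for these the ratio is a bound, taken from dye-normalised processed signals with no dye swap. In transfected cells 3106 genes were dim, 112 of them at least 2-fold lower. A stricter bound uses the highest signal not called above background (52.98 in Cy5, 28.0 in Cy3) in place of the lowest one called (34.6 and 17.8), and 25 genes were then at least 2-fold lower. PTGFRN, a membrane partner of tetraspanins, was 223 in mock and at least 6.32-fold lower (4.21-fold by the stricter bound), while the other 3 PC3 arrays gave 0.32, 1.11 and 0.61 as log2 ratios. The next were CLSPN and MUC5AC, then ENST00000605570 (at least 4.29-fold, strictly 2.80) and VTRNA1-1, a vault RNA (at least 3.97-fold, strictly 2.59). In mock cells 97 genes were dim, and 41 of them were at least 2-fold higher after transfection by the stricter bound; with the plain one the floors of the channels nearly fix that count, so it is not read.

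The 5 strongest of these upward bounds, NDNF (at least 131-fold), lnc-TIMM13-1 (56.2), LRRC37A6P (26.7), STK31 (23.0) and lnc-AC003101.1.1-3 (13.1), or 86.5, 35.7, 17.0, 14.6 and 8.29 by the stricter bound, all lay in 2 small blocks of the grid where neighbouring spots, of unrelated genes, were bright in runs on this array alone. The blocks held 338 of 60901 gene spots but 16 of the 97 genes. Outside them the strongest were USP30-AS1 (at least 7.23-fold), LRRC36 (6.18), lnc-PODN-1 (6.16), SLC15A3, a peptide and histidine transporter of endolysosomes (5.46), and LOC101928864 (5.43), or 4.59, 3.93, 3.91, 3.47 and 3.45 by the stricter bound. LRRC36 was also high with miR-150-5p (log2 ratio 1.31) and miR-99a-3p (1.43). With miR-150-5p, miR-99a-3p and miR-100-3p lnc-PODN-1 gave 1.12, 2.39 and -0.01. USP30-AS1, SLC15A3 and LOC101928864 were not measured in both channels on any other PC3 array. Of the ranked genes past the threshold, only 7 were read in these blocks, and the most extreme was CAMK2N1 at 1.17; with the blocks left out the counts were 402 below -1 and 467 above 1.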

How the data were processed

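Total RNA of mock (Cy3) and transfected (Cy5) cells was labelled and hybridised to 8 Agilent 2-colour arrays, and the authors deposited the Feature Extraction 10.7.3.1 output. Its processed signals are intensity values, background-subtracted and dye-normalised by the scanner software, and its deposited ratio is log10 of Cy5 over Cy3. It was multiplied by 3.32 to give log2. The deposited series value table held the same ratios (maximum difference 0). The error is the deposited log10 ratio error on the same scale. Mean and background intensity as deposited served for one alternative only.

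Control spots and 136 of 60901 gene spots flagged as non-uniform or population outliers were left out, spots of a probe were averaged, and the brightest probe stood for each of 43304 gene names. Names are those of the array design; 14009 of the 17633 ranked genes matched RefSeq, which gave current symbols and gene types. "Well above background" is the scanner's own call. Bounds divide the bright signal by the higher of the dim signal and the lowest signal called above background (34.6 in Cy5, 17.8 in Cy3).

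With 1 array per condition there is no replicate and no test: a threshold of 1 on the log2 scale, a 2-fold difference, stands for a call. Named genes were the 20 lowest, the 20 highest off the interferon list, the 5 highest on it, the 5 strongest bounds each way, and of 20 lists up to 2 lowest and 2 highest members, with every reported miR-150 target; a few genes that this rule names are not reported here. Genes named beyond this, such as those with a motif or in the bright blocks, were chosen after their values were seen. Members and lists were chosen with earlier results of these data known. The gene step and the alternative normalisation were checked on simulated data. A description of seed matches in 3′ UTRs was planned and not run, since the sequences were not analysed here. Tools were Python 3.11.15 (pandas 2.3.3, numpy 2.4.6, matplotlib 3.10.9) and R 4.3.3 with limma 3.58.1; normexp used an offset of 50.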

Additional observations from a re-analysis of the deposited data

How the results depend on the processing

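No paired analysis was possible because the conditions were hybridised to 1 array each. The counts (403 below -1, 471 above 1, 420 above 1 off the interferon list) became 204, 168 and 126 with normexp (offset 50) and loess, and 193, 170 and 127 with the mean of the 4 PC3 mock channels as control; an offset of 50 draws the ratios of dim genes towards 0 by construction. With no filter on dim probes they were 2154, 2110 and 2047, and with probes above background in at least 1 channel 1372 genes were below -1. A threshold of 0.58 gave 1570, 1884 and 1795, and a threshold of 2 gave 12, 31 and 11; the motif share off the list was then 0%. Other probes of a gene, flagged spots, centring, the series value table, the other 3 arrays as reference and leaving out the 2 bright blocks, the last chosen after seeing the data, kept these counts within 1.5 times.

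Of 200 list medians recomputed, 191 moved by less than the list's median spot error. Less the mean of the other 3 PC3 arrays, the medians were -0.037 for DNA replication, 0.31 for mitosis, 0.15 for PC3 markers, -0.089 for TGF-beta, 0.0029 for microRNA machinery, -0.37 for markers of other cell types and 0.039 for reported miR-150 targets. The last was -0.047 with the dimmest passing probe, and that of other cell types was -0.58 with probes above background in at least 1 channel. Their causes were not tested.

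All 20 lowest genes stayed below 0, and the 20 highest off the interferon list above 0, under all 10 settings tried for them. Past the threshold were 19 or 20 of the lowest under each, and 14 to 20 of the highest, the fewest with normexp. LCN2 was the 1 named gene past the threshold that changed sign, to 0.32, with the 4 mock channels as control. With a stricter limit, the highest signal that the scanner did not call above background (52.98 in Cy5, 28.0 in Cy3), 25 genes dim in transfected cells and 41 dim in mock cells were at least 2-fold apart, in place of 112 and 97. The seed-site description and its 3 alternatives were not run.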
